A study of Mus musculus with 32 samples.

Results

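Alternative last exons with a balanced estimated share in control cells were examined across the depletion of each of 7 SR proteins. The cells were mouse P19, a pluripotent embryonal carcinoma line. The members are 2989 alternative last exon events of the 8197 events in the whole-cell table that compares SRSF3 knockdown with the GFP control (36.5%). They were chosen by a measured value, the share of 1 of the 2 alternatives in the whole-cell GFP control, which had to lie between 0.20 and 0.80. The share is the posterior mean of MISO, a program that estimates isoform shares from reads, and it exists once per group because replicates were pooled. Balanced refers to this share alone. By a second count of reads, given below, 347 of 1207 pairs of last exons (28.7%) lay between 20 and 80% proximal. The remaining 5208 events lay outside these limits, and 8404 events were present in any of the 14 tables. Whole-cell differences from GFP therefore reuse the value that chose the members and are given as a description, whereas the cytoplasm, and the whole-cell knockdowns compared with each other, did not take part in the choice.

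P19 cells were transfected for 36 h with endoribonuclease-prepared siRNAs (esiRNAs) against SRSF1, SRSF2, SRSF3, SRSF4, SRSF5, SRSF6 or SRSF7, or against GFP as the control. Poly(A)+ RNA of whole cells and of the cytoplasm was sequenced as single reads of 75 or 85 bases, with 2 replicates (A and B) per group and fraction, 32 libraries in all. All groups share the parental line and differ in the esiRNA pool alone. The knockdowns are partial, and the depleted mRNA was left on average at 48.8 to 68.7% of the GFP level in whole cells and at 37.8 to 77% in the cytoplasm, with *Srsf2* the least reduced there. *Srsf3* was less reduced in SRSF3 knockdown A than in B. It had 7145 and 4440.1 scaled reads in whole cells (GFP 8695 and 8161), and 5720.4 and 3215 in the cytoplasm (GFP 7172 and 6254).

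SR proteins are RNA-binding proteins that take part in the choice of splice sites, and several of them shuttle and act as adaptors of the export receptor NXF1. A gene with alternative last exons makes transcripts with different 3′ ends. Use of the proximal exon ends the transcript early, often within what is an intron of the longer transcript. Use of the distal exon requires splicing past the proximal exon, or out of it where the proximal exon begins as an internal exon. The choice therefore depends on splicing and on cleavage and polyadenylation together, and it can change the encoded C terminus as well as the 3′ untranslated region. The study examined how SR proteins take part in mRNA export and in the choice of 3′ ends, and SRSF3 and SRSF7 are compared directly here.

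The 3′ splice sites of 5 members named below are given here, since use of the distal exon needs the second of each pair to be chosen. Each line runs 5′ to 3′ on the coding strand with 20 bases of intron and 3 bases of exon, and the capitals mark the AG at the end of the intron. Sequences were read from mm9 at the annotated start of the last exon.
*Stam* proximal, chr2:14063309-14063331, plus strand: ttccgtatcatctcttatAGgta
*Stam* distal, chr2:14067826-14067848, plus strand: gtgtttttcttcccccacAGtgc
*Heg1* proximal, chr16:33720715-33720737, plus strand: cctcctgtgatatctcacAGcct
*Heg1* distal, chr16:33766727-33766749, plus strand: ccttttcggttggcctccAGccc
*Sec24a* proximal, chr11:51557500-51557522, minus strand: ttctcctgtctcttctgaAGgtc
*Sec24a* distal, chr11:51508741-51508763, minus strand: tgctgccttttatctctaAGgga
*Recql* proximal, chr6:142311387-142311409, minus strand: cattggccactctcttgcAGggt
*Recql* distal, chr6:142308510-142308532, minus strand: acatatttaacttttctcAGctt
*Prdx4* proximal, chrX:151771995-151772017, minus strand: ttatttgtctttctgtctAGtgt
*Prdx4* distal, chrX:151758569-151758591, minus strand: tttgctttttgttttaacAGata
At *Stam*, *Heg1*, *Sec24a* and *Recql* the proximal exon overlaps a non-last exon, so the 2 sites need not exclude each other. No difference between the letters of the sites was tested.

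The members lie in 1756 host genes, of which 1212 hold 1 member, 246 hold 2 and 298 hold 3 or more. Events of 1 gene share exons and reads, so members are not independent of each other. Both ends of the proximal last exon were known for 1987 of the members with at least 20 control reads, reads of both alternatives and a known order. In 1869 of these (94.1%) the proximal last exon overlapped an exon that is not last in another annotated transcript (composite), compared with 3054 of 3511 events outside the limits (87%). Such an exon typically begins as an internal exon and runs on into the following intron. The median proximal last exon was 1325 bases long in members and 1125 bases in the other events, and its overlap with non-last exons was 186 and 125 bases. The median distal last exon was 858 bases long in members and 1391 bases in the others, and the proximal exon was the longer of the pair in 64.2% of members and 39.6% of other events. The ends of the 2 alternatives were a median of 13733 bases apart in members (quartiles 5512 and 31999.5).

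Letters around the exon ends were searched in both sets. The hexamers AATAAA or ATTAAA, the poly(A) signals best known in mammals, were found on the coding strand within the last 40 bases of 32.5% of member proximal exons (645 of 1987), compared with 35.6% in the other events (1249 of 3511). For distal exons the shares were 56.8% in members (857 of 1510) and 63.7% in the others (1865 of 2927). The AG of the 3′ splice site was present before 99.1% of proximal and 99.5% of distal member exons, and the 18 bases before it held a median of 77.8% C or T in both.

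Read counts behind the chosen values varied. At least 20 control reads were present for 2560 members, and 429 had fewer. In 221 members the control held no read of 1 alternative, and 117 of these had at least 20 reads in total. The share of 116 of the 117 lay between 0.45 and 0.55 although all reads fell on 1 side. The length of the exon without reads was known in 29 of them, with a median of 33 bases, and 27 were shorter than the shortest read of 75 bases. These members met the limits without a measurement of balance. They were left out of the exon structure above and of the description of the share that follows here, but were kept in the counts of MISO changes below. Over the 2440 remaining members with an order of exons, the proximal last exon had a median share of 40% (quartiles 28 and 57.2%), and it was the lesser alternative in 1587 members, the greater in 809 and level in 44. In 98.3% of members with reads of both sides the deposited share lay within 0.02 of the plain share of reads, so a longer exon gathers a larger share at the same number of transcripts.

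At the limits of the choice, *Ankrd10*, *R3hdm1* and *Nek2* were just inside at 0.20, and *Tdp2*, *Pcdha4* and *Nob1* just outside at 0.19. At the upper limit, *Crk*, *Clcn3* and *Tnrc6b* were just inside at 0.80, and *Syncrip* and 2 events of *Taf9* just outside at 0.81. These shares are of the first alternative named in the event, whichever end it is. They are the events with the most GFP reads at each share (1747 to 10467), and their 95% intervals were 0.01 to 0.03 wide. The limits thus divided events of like shares, and events with fewer reads at the limits are not described by these intervals.

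Per-library values came from exon bins, the non-overlapping pieces of exons in which reads had been counted for each library. Reads were summed on each side over the bins of 1 last exon that are in no transcript ending at the other last exon. This matched 1353 members, which give 1342 different pairs of last exons in 895 genes, and 1207 pairs had at least 20 such reads in the whole-cell control. Counted in this way, 347 of the 1207 (28.7%) lay between 20 and 80% proximal, 846 lay below, 14 lay above, and the median was 8.40%. Dividing by the length of the bins left 310 pairs (25.7%) between the limits. Composite proximal exons had a median MISO share of 39% and a median bin share of 6.94%, with 258 of 1059 (24.4%) between the limits. Separate proximal exons, which overlap no non-last exon, had the same median MISO share of 39% and a median bin share of 31.4%, with 61 of 87 (70.1%) between the limits. The MISO share also uses reads of the part that other transcripts share. The bins of a composite exon leave out the part shared with transcripts that end at the other last exon. Bins that lie in internal exons of further transcripts were kept. For 1 *Chd7* pair 250 distal bases were counted, although all 422 bases of its distal last exon overlap non-last exons. Bins can also hold reads of unspliced RNA, which cannot be told apart from early-ending transcripts.

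**Figure D1:**
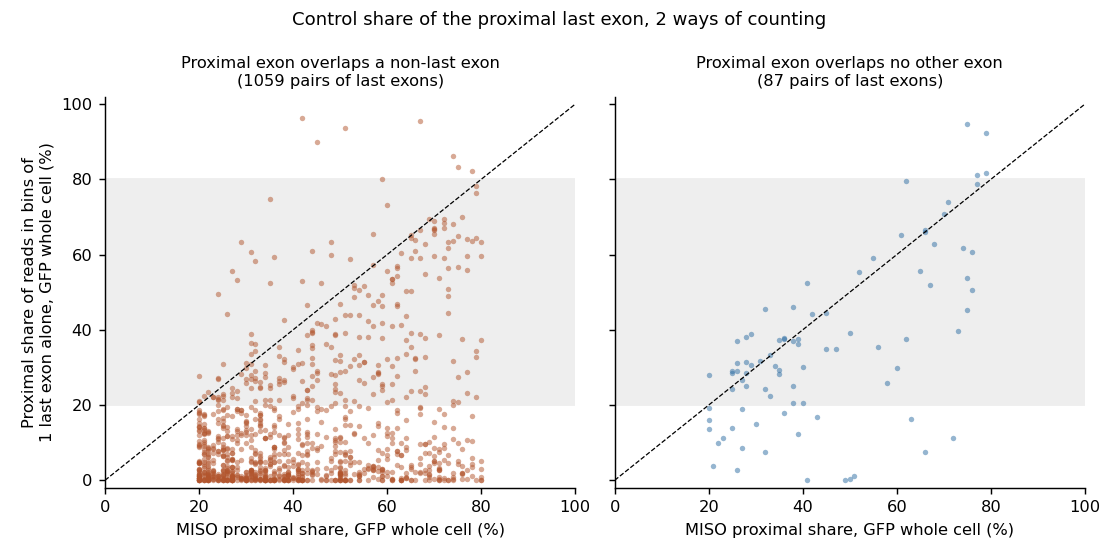
Share of the proximal last exon in the whole-cell GFP control by MISO (x axis, percent) and by bin reads (y axis, percent). The bins are those of 1 last exon that are in no transcript ending at the other. Each point is 1 pair of last exons, with composite exons at the left and separate exons at the right. The grey band marks 20 to 80% and the dashed line equality, and 24.4% of composite and 70.1% of separate pairs fall in the band.

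Members had a lower proximal share in the cytoplasm than in whole cells. Among members with at least 20 reads in both fractions, the median proximal share in SRSF7 knockdown cells was 30% in the cytoplasm and 41% in whole cells, with 1667 members lower and 457 higher in the cytoplasm of 2203. In SRSF3 knockdown cells the medians were 34% and 41%, with 1561 lower and 609 higher of 2266. The median difference per member ran from -9 points with SRSF7 knockdown to -5 points with SRSF3 knockdown, and it was -8 points in the GFP control. Composite exons had median differences of -11 to -6 points over the 7 knockdowns, and separate exons of -4 to -2 points, on 97 to 112 separate members. In GFP the composite and separate medians were -9 and -2 points. Events outside the limits, which have less room, had a median difference of -1 point in each knockdown and in GFP. The whole-cell GFP value in this comparison is the one that chose the members, and all values are pooled per group, so no test was made.

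Changes of the MISO share were counted where knockdown and GFP differed by at least 20 points with 95% intervals that did not overlap. In whole cells, SRSF1 knockdown had 32 members with a higher and 8 with a lower proximal share of 2478, against 0.533% and 0.137% of all events with such a change. SRSF3 knockdown had 16 higher and 23 lower of 2472 (all events 0.329% and 0.467%). The other whole-cell counts were 18 of 2487 with SRSF2 knockdown (all events 0.314%), 4 of 2521 with SRSF4 (0.0809%), 2 of 2525 with SRSF5 (0.0404%), 8 of 2535 with SRSF6 (0.120%) and 17 of 2530 with SRSF7 (0.296%). An event near 0 or 1 has less room for a change of 20 points, so a higher share among members follows in part from the limits themselves.

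In the cytoplasm, SRSF1 knockdown had 50 members with a higher and 8 with a lower proximal share of 2142 (all events 0.994% and 0.260%). SRSF3 knockdown had 39 higher and 20 lower of 2181 (0.722% and 0.482%). SRSF2 knockdown had 33 of 2138 (0.825%), SRSF4 19 of 2132 (0.382%), of which 17 were higher, SRSF5 13 of 2181 (0.286%), SRSF6 15 of 2186 (0.284%) and SRSF7 20 of 2163 (0.438%), 10 in each direction. At least 20 reads in both groups were present for 2580 members in 1 or more of the 14 comparisons and for 2026 in all of them. In all, 243 members of 194 genes had a counted change in 1 or more of the 14 comparisons (9.42%, all events 4.39%). Of these, 189 were counted in 1 knockdown, 39 in 2, 11 in 3, 3 in 4 and 1 in 5, and every comparison within a fraction shares the same GFP libraries. Counted in both fractions were 13 members with SRSF3 knockdown (6 higher, 7 lower), 7 with SRSF1 (5 higher, 2 lower), 4 with SRSF2, 3 with SRSF7, 1 with SRSF6 and none with SRSF4 or SRSF5. This overlap was not counted over all events, which have less room for such a change, so no excess among members can be read from it. Most members moved little, and 54.6 to 70.7% of them lay within 5 points of GFP in each comparison. These counts include members with no control read of 1 alternative, whose share near 0.5 is no measurement.

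**Figure D2:**
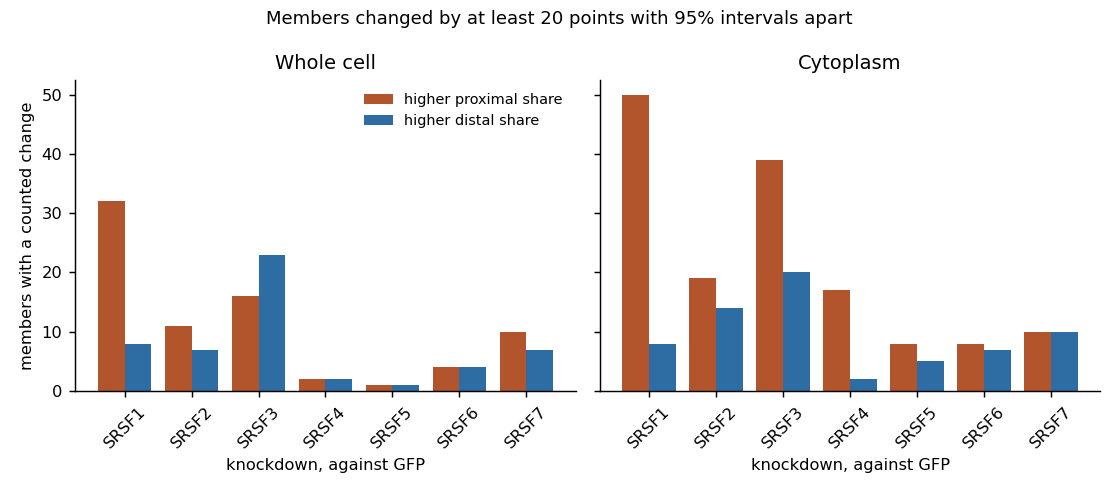
Number of members (y axis) whose MISO share changed by at least 20 points with 95% intervals apart, by knockdown (x axis), in whole cells and in the cytoplasm, against GFP. SRSF1 knockdown had 32 higher and 8 lower in whole cells and 50 higher and 8 lower in the cytoplasm, and SRSF3 knockdown 16 and 23, and 39 and 20.

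The libraries held 38874542 to 72741730 bin reads. Markers of pluripotent cells were high in every library, and *Pou5f1*, which defines them, stood at 23944 to 113255 scaled reads. The cytoplasmic A libraries differed from the B libraries. *Malat1*, a nuclear RNA, was at 155 to 511 scaled reads in cytoplasmic A libraries, highest in SRSF3 knockdown A, and at 51.4 to 89.8 in B. A list of 4 pancreas and secretory genes summed to 12.9 to 1549.9 in cytoplasmic A libraries, lowest in SRSF2 knockdown A, to 4.64 to 13.2 in cytoplasmic B libraries, and to at most 7.87 in whole cells. The part of these differences in the results was not tested. Deviations of same-letter libraries moved together, so values with the letter as a block are given beside each count that changed by more than 1.5 times.

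Each test below compared log2 of proximal over distal bin reads per library with limma, at an adjusted p under 0.1 over all pairs of last exons of the fraction. A positive value means relatively more proximal reads. In bulk RNA a change of this ratio can come from either exon, and both read counts are therefore given for the members that matter. With 2 libraries per group, the spread was estimated over all libraries of the fit, 16 in the cytoplasm and 14 in whole cells. The p-values are thus set against the replicate spread of all groups, not of the compared groups alone.

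In the cytoplasm, SRSF1 knockdown raised the proximal share of *Zfr2*, *Evc2* and *Strc*, 3 of 1099 members tested, and lowered none (all pairs 0.240% and 0.0601%). With the letter as a block 27 members rose and 7 fell, and without GFP A, GFP B or SRSF1 knockdown A no member was called, and 1 without SRSF1 knockdown B. Over all pairs the block called 1.8%, counted over both directions. The median change was 0.27 over members and 0.20 over all pairs tested. *Zfr2*, a zinc finger RNA-binding protein, had 69 proximal and 36 distal reads in SRSF1 knockdown A and 71 and 44 in B, against 5 and 27 in GFP A and 4 and 45 in GFP B. Its proximal share was 65.7 and 61.7% with SRSF1 knockdown and 6.67 to 40% in the other 12 knockdown libraries, so the groups did not overlap (log2 change 3.64 ± 0.59 SE, adjusted p = 0.0658). *Evc2*, a component of Hedgehog signalling at the cilium, had shares of 34.9 and 22.1% with SRSF1 knockdown and of 2.75 and 2.78% in GFP (3.58 ± 0.59 SE, adjusted p = 0.0658). SRSF2 knockdown stood close to it at 20.2 and 19.3%, and the other knockdowns at 1.68 to 13.5%. *Strc*, stereocilin of the inner ear hair bundle, had 43.6 and 42.2% with SRSF1 knockdown and 12.8 and 2.86% in GFP (3.19 ± 0.61 SE, adjusted p = 0.0930), on 24 and 27 proximal reads. All 3 have a composite proximal exon. In whole cells, against the mean of the other 6 knockdowns, *Evc2* and *Strc* passed (adjusted p = 0.0881 and 0.0904). There *Zfr2* did not (0.73 ± 0.38 SE, adjusted p = 0.369).

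SRSF3 knockdown raised the proximal share of 6 members in the cytoplasm and lowered that of 2, of 1099 tested (all pairs 0.270% in each direction). With the block 19 rose and 5 fell (all pairs 1.44% over both directions). Without either GFP library or SRSF3 knockdown B no member was called, and 2 were without SRSF3 knockdown A. The median change was 0.17 over members and 0.16 over all pairs. *Stam*, an adaptor of the endosomal sorting machinery, had 62 proximal and 363 distal reads in SRSF3 knockdown A and 73 and 338 in B, against 3 and 393 in GFP A and 1 and 372 in GFP B. Its proximal share of 14.6 and 17.8% stood above the other 12 knockdown libraries, which ran from 0 to 3.06% (5.01 ± 0.85 SE, adjusted p = 0.0402). The distal exon kept most reads in every library, and the gain lay in the proximal reads. By MISO, which adds reads of the shared part, *Stam* was at 37% with SRSF3 knockdown and 13% in GFP.

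*Heg1*, a transmembrane protein needed in heart and vessel development, had 82 proximal and 191 distal reads in SRSF3 knockdown A and 44 and 162 in B, against 9 and 213 in GFP A and 5 and 212 in GFP B. These are shares of 30 and 21.4% with SRSF3 knockdown, above the 1.43 to 6.85% of the other knockdowns (3.34 ± 0.61 SE, adjusted p = 0.0440). *Sec24a*, a cargo adaptor of the COPII vesicle coat, had 24.3 and 22.4% with SRSF3 knockdown and 3.38 and 6.64% in GFP (2.55 ± 0.50 SE, adjusted p = 0.0629). SRSF1 knockdown B, at 14.9%, was the closest other knockdown library for *Sec24a*. *Unc13b*, a priming factor of synaptic vesicles, had 9.92 and 6.93% with SRSF3 knockdown and 1.53 and 0.557% in GFP (3.08 ± 0.61 SE, adjusted p = 0.0629). *Pgap2*, which remodels GPI anchors, had 3.54 and 3.66% with SRSF3 knockdown and 0.439 and 0.592% in GFP (2.67 ± 0.49 SE, adjusted p = 0.0440), on 11 and 18 proximal reads. *Chd7*, a chromatin remodeler, had 9 and 6 proximal reads with SRSF3 knockdown and none in either GFP library, a ratio of proximal to distal at least 5.24-fold higher when 3 reads are taken as the floor over the GFP group (adjusted p = 0.0622). In whole cells *Stam*, *Sec24a* and *Chd7* also passed, against the mean of the other 6 knockdowns. *Heg1* (0.73 ± 0.41 SE, adjusted p = 0.372), *Unc13b* (0.13 ± 0.24 SE, adjusted p = 0.822) and *Pgap2* (1.19 ± 0.48 SE, adjusted p = 0.221) did not. *Heg1* there had 26.9 and 33.5% with SRSF3 knockdown, and SRSF6 knockdown B had 29.2%.

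*Recql* and *Ganc* moved the other way, and in both the distal exon gained reads. *Recql*, a RecQ DNA helicase, had 198 proximal and 211 distal reads in SRSF3 knockdown A and 152 and 109 in B, against 120 and 6 in GFP A and 113 and 13 in GFP B. The distal exon held at most 15 reads in each of the 12 libraries of the other knockdowns. The proximal share fell to 48.4 and 58.2% with SRSF3 knockdown, against 95.2 and 89.7% in GFP, and no other knockdown library was below 86.7% (-3.45 ± 0.69 SE, adjusted p = 0.0641). *Ganc*, a neutral alpha-glucosidase, had 116 and 130 distal reads with SRSF3 knockdown and 35 and 31 in GFP, and its proximal share was 5.69 and 2.26% against 23.9 and 22.5% (-2.91 ± 0.51 SE, adjusted p = 0.0428). The GFP libraries of *Ganc* stood above every knockdown library, whose shares ran from 2.26 to 17.5%, so part of that difference lies in the control. In whole cells, against the mean of the other 6 knockdowns, *Recql* passed and *Ganc* did not (-1.04 ± 0.32 SE, adjusted p = 0.116).

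**Figure D3:**
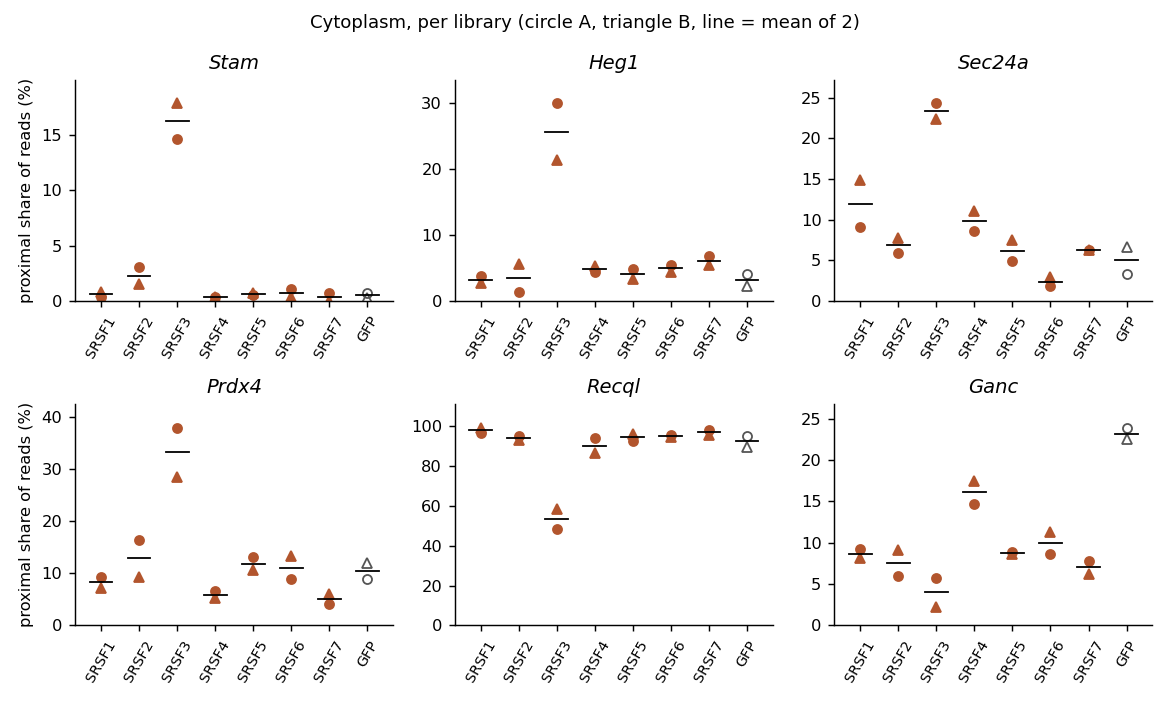
Proximal share of bin reads (y axis, percent) in each cytoplasmic library for 6 members, by knockdown with GFP at the right; circles are replicate A, triangles replicate B, and lines the mean of the 2. SRSF3 knockdown libraries stand apart for *Stam*, *Heg1*, *Sec24a*, *Prdx4* and *Recql*, while for *Ganc* the GFP libraries also stand above all knockdowns.

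No member passed the test against GFP in the cytoplasm with SRSF2, SRSF4, SRSF5, SRSF6 or SRSF7 knockdown, and no pair of last exons of any kind did (all pairs 0% in each). At an unadjusted p under 0.05 there were 88, 45, 36, 39 and 68 members of 1099 for these 5 knockdowns in that order. An edgeR test of the same reads called 2 members with SRSF2 knockdown and none with SRSF4 to SRSF7. Its share over all pairs was not counted. The SE of a member's log2 change had a median of 0.76 in the cytoplasm, and of 0.40 in the whole-cell comparisons with the other knockdowns, so smaller changes were less detectable in the cytoplasm.

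The contrast of SRSF3 with SRSF7 knockdown does not use the control. In the cytoplasm 12 members had a higher proximal share with SRSF3 than with SRSF7 knockdown and 3 a lower one (all pairs 0.631% and 0.571%). The block gave 26 and 16, and leaving out 1 library at a time left 4 to 9 called. Over all pairs the block called 3.57%. *Stam* differed most, with 14.6 and 17.8% in SRSF3 knockdown and 0.738 and 0% in SRSF7 knockdown (6.0 ± 0.85 SE, adjusted p = 0.00742). *Prdx4*, an endoplasmic reticulum peroxiredoxin whose proximal exon is separate, had 113 proximal and 184 distal reads in SRSF3 knockdown A and 156 and 391 in B, against 11 and 261 in SRSF7 knockdown A and 19 and 300 in B (3.21 ± 0.49 SE, adjusted p = 0.0121). Its shares of 38 and 28.5% with SRSF3 knockdown stood above the 4.04 to 16.4% of the other knockdowns, and the GFP libraries were at 8.86 and 11.9%. In whole cells *Prdx4* did not pass this contrast (1.68 ± 0.56 SE, adjusted p = 0.174, and 0.0261 with the block). *Ep400*, the ATPase of the TIP60 chromatin complex, had 6.26 and 4.45% with SRSF3 knockdown and 0.897 and 0.445% with SRSF7 knockdown (3.03 ± 0.63 SE, adjusted p = 0.0646). *Abcc5*, an ABC transporter, had 36.2 and 13.5% with SRSF3 knockdown and 4.29 and 2.25% with SRSF7 knockdown, on 113 and 61 proximal reads, and its replicates were far apart (3.18 ± 0.70 SE, adjusted p = 0.0777). *Tmem175*, a lysosomal channel, had 7.53 and 8.48% with SRSF3 knockdown and 1.01 and 0% with SRSF7 knockdown (3.77 ± 0.89 SE, adjusted p = 0.0985), and *Cadm1*, a cell adhesion protein, 3.70 and 8.33% and 0.746 and 0% (3.54 ± 0.67 SE, adjusted p = 0.0415). These rest on few proximal reads, 7 and 19 of *Tmem175* and 2 and 11 of *Cadm1* with SRSF3 knockdown, against 1 and 0 of each with SRSF7 knockdown.

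*Recql* had the largest fall in the cytoplasm, with 48.4 and 58.2% proximal in SRSF3 knockdown and 98.1 and 95.7% in SRSF7 knockdown (-4.75 ± 0.69 SE, adjusted p = 0.00794). The other 2 rest on few proximal reads. *Arhgef7*, an exchange factor for Rac and Cdc42, had no proximal read with SRSF3 knockdown and 1 in each SRSF7 knockdown library, and 20 and 23 distal reads with SRSF3 knockdown against 1 and 4 with SRSF7 knockdown, where GFP had 13 and 18 (adjusted p = 0.0573). Its ratio moved through fewer distal reads with SRSF7 knockdown. *Ppm1h*, a phosphatase, had 2 proximal reads in each SRSF3 knockdown library and 6 and 5 with SRSF7 knockdown, and 73 and 77 distal reads with SRSF3 knockdown against 12 and 31 with SRSF7 knockdown, where GFP had 14 and 22 (adjusted p = 0.0985). There most of the difference lay in distal reads gained with SRSF3 knockdown. Of the 15 members called, 9 had a mean of at least 10 reads on both exons over the cytoplasmic libraries, 8 higher and 1 lower.

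In whole cells 23 members had a higher and 22 a lower proximal share with SRSF3 than with SRSF7 knockdown, of 1214 tested (all pairs 1.87% and 2.23%). The block gave 44 and 43 (all pairs 7.05% over both directions). Without SRSF3 knockdown A 3 members were called, without SRSF7 knockdown A 8, without SRSF7 knockdown B 5 and without SRSF3 knockdown B 39. With both exons at a mean of at least 10 reads, 12 were higher and 20 lower. *Stam* again differed most, with 125 proximal and 412 distal reads in SRSF3 knockdown A and 163 and 553 in B, against 10 and 875 in SRSF7 knockdown A and 16 and 1052 in B (4.45 ± 0.56 SE, adjusted p = 0.00471). Of 32 named values of the cytoplasm and of SRSF3 against SRSF7, 3 kept their call without each library in turn, *Stam* in both fractions and *Recql* in the cytoplasm, both for SRSF3 against SRSF7. *Helz*, a helicase with a zinc finger, had 4.72 and 5.08% with SRSF3 knockdown and 0.853 and 0.556% with SRSF7 knockdown (2.87 ± 0.48 SE, adjusted p = 0.0214). *Chd7* had 38 and 31 proximal reads with SRSF3 knockdown and 4 and 5 with SRSF7 knockdown, in 2 pairs that share the proximal exon (3.26 ± 0.68 SE, adjusted p = 0.0475, and 3.91 ± 0.83 SE, adjusted p = 0.0488). *Tnpo3*, the importin that carries SR proteins into the nucleus, had 10 and 8 proximal reads with SRSF3 knockdown and 1 in each SRSF7 knockdown library (2.84 ± 0.40 SE, adjusted p = 0.00897). *Ikbkb*, a kinase of NF-kappaB signalling, had 62.8 and 22.7% with SRSF3 knockdown and 6.82 and 9.38% with SRSF7 knockdown (adjusted p = 0.0994), and its SRSF3 knockdown B library lay within the range of the other knockdowns. In the cytoplasm *Helz* (adjusted p = 0.661), *Chd7* (0.160 and 0.671), *Tnpo3* (0.857) and *Ikbkb* (0.584) did not pass this contrast. *Tnpo3* had at most 2 proximal reads in any cytoplasmic library.

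Among members that were lower with SRSF3 than with SRSF7 knockdown in whole cells, some had the 2 knockdowns on either side of the control, whose own distance from each was not tested since its value chose the members. *Bcl11a*, a zinc finger transcription factor, had proximal shares of 52.9 and 49.6% with SRSF3 knockdown and 79.5 and 83.4% with SRSF7 knockdown, with GFP between them at 68.5 and 59.9% (-2.06 ± 0.34 SE, adjusted p = 0.0201). *Ranbp17*, a nuclear transport receptor, had 6.19 and 11.9% with SRSF3 knockdown and 36.4 and 29.6% with SRSF7 knockdown, with GFP between them at 14.4 and 12.8% and SRSF1 knockdown also high at 35.5 and 25.7% (-2.34 ± 0.43 SE, adjusted p = 0.0335). *Ttc21b*, a protein of ciliary transport, had 1.37 and 6.95% with SRSF3 knockdown and 18.7 and 17.5% with SRSF7 knockdown, with GFP at 8.11 and 6.67%, where SRSF3 knockdown B overlapped GFP (-2.61 ± 0.61 SE, adjusted p = 0.0640). *Recql* had 42.2 and 52% with SRSF3 knockdown and 83.7 and 81.5% with SRSF7 knockdown, and there GFP, at 81.2 and 82.9%, was beside SRSF7 knockdown (-2.41 ± 0.43 SE, adjusted p = 0.0306). *Ppm1h* had 4 proximal reads in each SRSF3 knockdown library and 6 and 14 in the SRSF7 knockdown libraries, and 47 and 24 distal reads with SRSF3 knockdown against 13 in each SRSF7 knockdown library (-2.45 ± 0.66 SE, adjusted p = 0.0994). *Casc1*, a ciliary dynein component, had at most 1 proximal read in any whole-cell library and 166 and 129 distal reads with SRSF3 knockdown, against 7 and 4 with SRSF7 knockdown and 11 and 4 in GFP (-3.07 ± 0.69 SE, adjusted p = 0.0564). The change at *Casc1* is thus one of distal exon reads, and no share of the proximal exon was measurable. In the cytoplasm *Bcl11a* (-1.77 ± 0.58 SE, adjusted p = 0.240), *Ranbp17* (-1.28 ± 0.91 SE, adjusted p = 0.674) and *Ttc21b* (-2.02 ± 1.01 SE, adjusted p = 0.474) did not pass this contrast. *Ranbp17* had at most 6 proximal reads in any cytoplasmic library, and *Ttc21b* at most 3.

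**Figure D4:**
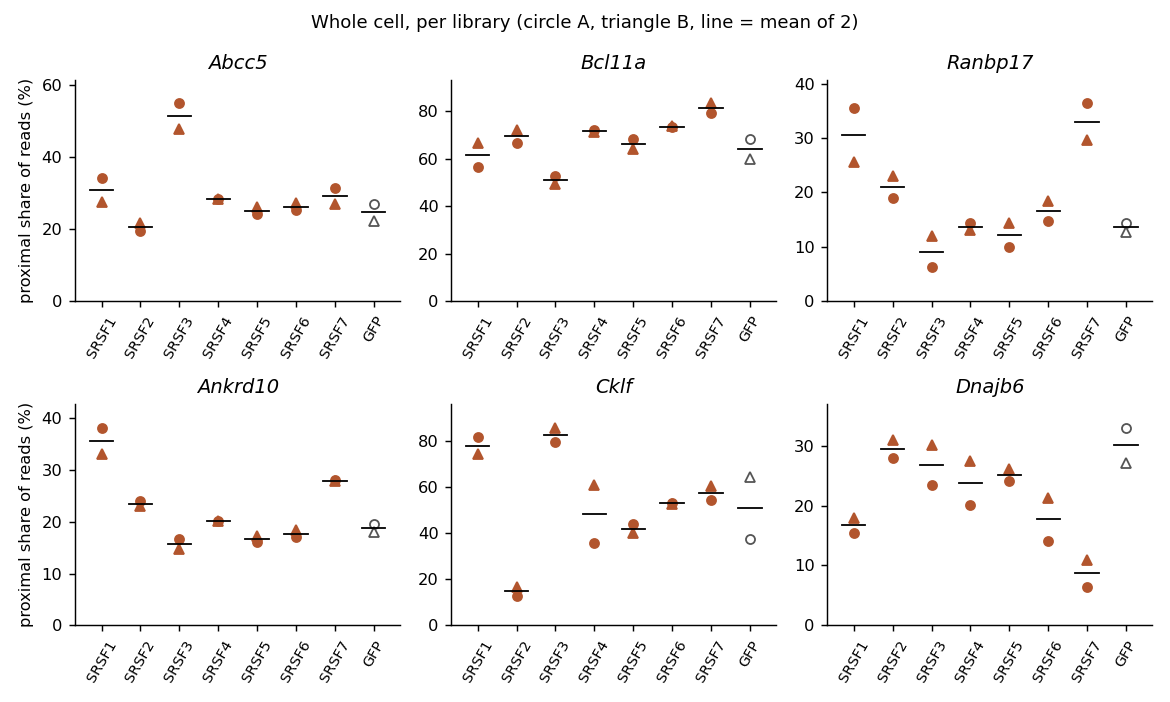
Proximal share of bin reads (y axis, percent) in each whole-cell library for 6 members, by knockdown with GFP at the right; circles are replicate A, triangles replicate B, and lines the mean of the 2. *Bcl11a* and *Ranbp17* have SRSF3 and SRSF7 knockdown on either side of GFP, *Abcc5* is highest with SRSF3 knockdown, *Ankrd10* is highest with SRSF1 knockdown, *Cklf* lowest with SRSF2 and *Dnajb6* lowest with SRSF7.

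Each whole-cell knockdown was next compared with the mean of the other 6, without the GFP libraries. The mean of the others moves when 1 of them changes strongly, so that *Recql*, low with SRSF3 knockdown, is judged against a lowered mean in other knockdowns. The genes named here were chosen after their values were seen, and not every gene with a smaller p is named. SRSF1 knockdown raised the proximal share of 50 of 1214 members and lowered that of 12 (all pairs 4.02% and 1.54%). The block gave 78 and 20 (all pairs 8.06% over both directions). No member was called without SRSF1 knockdown A, 17 without SRSF1 knockdown B, and 38 to 53 without any other library. The median change was 0.17 over members and 0.18 over all pairs, so members shared a shift of all pairs. *Ankrd10*, an ankyrin repeat protein, had 38.2 and 33.1% with SRSF1 knockdown and 14.8 to 28.1% (median 19.2%) in the other 12 knockdown libraries (1.14 ± 0.19 SE, adjusted p = 0.0190). *Gtf2a2*, a subunit of the transcription factor TFIIA, had 16.3 and 17.7% against 5.90 to 14.6% (1.14 ± 0.19 SE, adjusted p = 0.0205). *Intu*, a planar polarity protein of cilia, had 14.6 and 14.4% against 3.12 to 8.19% (1.51 ± 0.27 SE, adjusted p = 0.0250), and *Lrp4*, the receptor of agrin, 21.4 and 18.8% against 6.89 to 12% (1.32 ± 0.24 SE, adjusted p = 0.0274). Toward the distal exon, *Nectin2*, a cell adhesion protein, had 16.2 and 21% with SRSF1 knockdown and 22.7 to 44.5% in the others (-1.37 ± 0.21 SE, adjusted p = 0.0190), and *Fut10*, a fucosyltransferase family member, had 2.08 and 4.73% against 8.81 to 24.7% (-2.27 ± 0.36 SE, adjusted p = 0.0190). Of the 62 members called, 46 had at least 10 reads on both exons on average. *Wac*, which did not, had no proximal read with SRSF1 knockdown and 1 to 3 in every other knockdown library (adjusted p = 0.0164), a difference of very few reads.

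SRSF3 knockdown raised the proximal share of 39 of 1214 members and lowered that of 27 (all pairs 3.08% and 2.86%). The block gave 57 and 53 (all pairs 9.39% over both directions). Without SRSF3 knockdown A 10 members were called, and 42 without SRSF3 knockdown B. The median change was 0.00 over members and 0.06 over all pairs. *Ep400* had the smallest p, with 124 proximal and 1006 distal reads in SRSF3 knockdown A and 122 and 1114 in B, shares of 11 and 9.87%, against 0.762 to 2.27% in the other 12 libraries (2.86 ± 0.24 SE, adjusted p = 1.86e-04). *Helz* (3.65 ± 0.37 SE, adjusted p = 6.84e-04), *Stam* (3.77 ± 0.43 SE, adjusted p = 0.00130), *Abcc5* (1.55 ± 0.22 SE, adjusted p = 0.00446) and *Sec24a* (1.13 ± 0.23 SE, adjusted p = 0.0294) rose as well. *Abcc5* had 54.8 and 47.8% with SRSF3 knockdown and 19.5 to 34% in the others. *Recql* fell (-2.63 ± 0.33 SE, adjusted p = 0.00207), with 505 and 298 distal reads against 27 to 103 in the other 12 libraries, and so did *Dusp22*, a phosphatase (-2.09 ± 0.41 SE, adjusted p = 0.0294), *Bcl11a* (-1.23 ± 0.26 SE, adjusted p = 0.0364), *Cdc123*, an assembly factor of the translation initiation factor eIF2 (-1.06 ± 0.22 SE, adjusted p = 0.0364), and *Mospd2* (-0.91 ± 0.19 SE, adjusted p = 0.0374). Of the 66 called, 45 had at least 10 reads on both exons on average, 20 higher and 25 lower, and the remaining 21 rest on fewer reads of the less read exon.

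**Figure D5:**
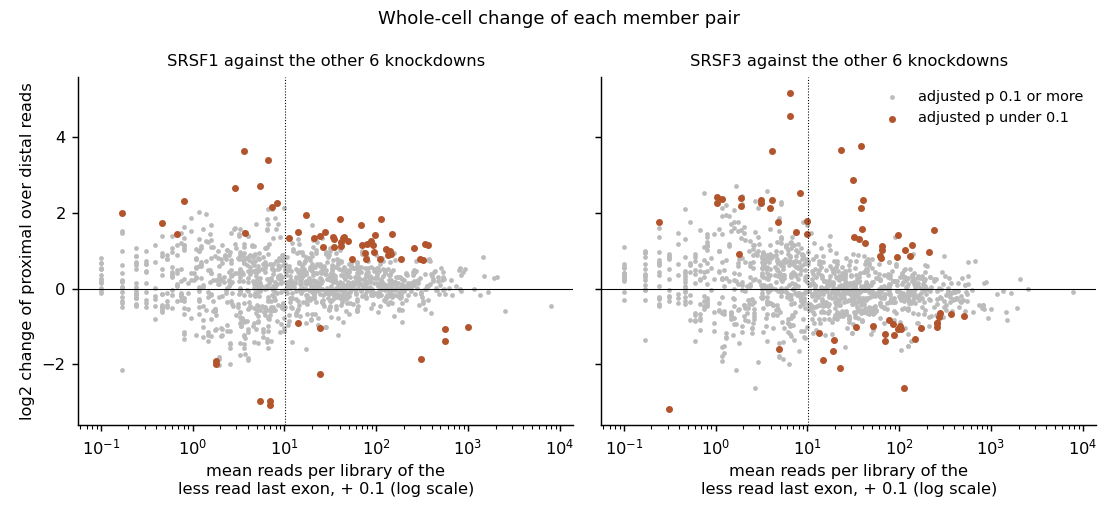
Log2 change of proximal over distal reads (y axis) of each member pair with SRSF1 or SRSF3 knockdown against the mean of the other 6 knockdowns in whole cells, by the mean reads per library of the less read last exon (x axis, log scale, 0.1 added); coloured points have an adjusted p under 0.1. With SRSF1 knockdown 50 members lie above and 12 below 0, with SRSF3 knockdown 39 and 27, and the dotted line marks 10 reads.

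SRSF2 knockdown raised the proximal share of 13 members and lowered that of 7 (all pairs 0.936% and 0.413%). The block gave 32 and 16 (all pairs 3.66% over both directions). Without SRSF2 knockdown A no member was called, and 8 without SRSF2 knockdown B. *Pex3*, a factor of peroxisome assembly, had 17 and 16.2% with SRSF2 knockdown and 3.06 to 6.84% in the other 12 libraries (1.83 ± 0.31 SE, adjusted p = 0.0471), *Crym*, a thyroid hormone binding protein, 27.1 and 23.3% against 5 to 16.3% (1.57 ± 0.28 SE, adjusted p = 0.0598), and *Med14*, a Mediator subunit, 31.2 and 25.7% against 8.15 to 20.3% (1.41 ± 0.27 SE, adjusted p = 0.0633). *Cklf*, a chemokine-like factor, had 13 proximal reads in each SRSF2 knockdown library with 89 and 65 distal reads, shares of 12.7 and 16.7%, and the other knockdowns ran from 35.5 to 85.6% (-3.17 ± 0.40 SE, adjusted p = 0.0215). *Acbd6*, an acyl-CoA binding protein, had 41.3 and 46.9% against 52.8 to 87.3% (-2.13 ± 0.36 SE, adjusted p = 0.0471).

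The remaining 4 knockdowns moved few members in whole cells. SRSF7 knockdown lowered 2 and raised none, and neither was called without any 1 of the 14 knockdown libraries. Over all 3633 pairs 4 were lower and 7 higher (0.303% over both directions), so the direction of the 2 members was not that of all pairs. The block called 1 higher and 5 lower (all pairs 0.633%). An edgeR test of the same reads called 26 higher and 10 lower, so the balance of directions with SRSF7 knockdown depends on the test. The edgeR share over all pairs was not counted. *Dnajb6*, a chaperone of the Hsp40 family, had 52 proximal and 755 distal reads in SRSF7 knockdown A and 130 and 1059 in B, shares of 6.44 and 10.9%, against 14.1 to 31% in the other knockdowns (-1.68 ± 0.30 SE, adjusted p = 0.0913). *Trappc13*, a subunit of the TRAPP tethering complex, had 8.57 and 13.7% with SRSF7 knockdown, against 18.8 to 30.4% in the other knockdowns (-1.38 ± 0.25 SE, adjusted p = 0.0913). SRSF5 knockdown lowered 3 pairs (all pairs 0.0826%), 2 of *Tnpo3* and 1 of *Zbtb40*, whose adjusted p of 0.0779 was 0.106 with the block, which called 2 (all pairs 0.110%). There were 0 proximal reads of *Tnpo3* in both SRSF5 knockdown libraries and 1 to 10 in the other 12, and edgeR called no member. The GFP libraries, left out of this comparison, held 2 and 0, so SRSF5 knockdown did not stand apart from GFP. Both *Tnpo3* pairs have 2695 proximal bases and are not separate evidence. SRSF4 knockdown moved no member (all pairs 0.0275%), with 46 at an unadjusted p under 0.05, and SRSF6 knockdown none (all pairs 0%), with 78, and edgeR called none for either.

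Composite and separate members were also counted apart. In whole cells 40 composite members rose and 5 fell with SRSF1 knockdown of 1066 tested (all pairs of either kind 4.02% and 1.54%). Of 87 separate members 4 rose and 5 fell. The median changes were 0.17 over composite and -0.01 over separate members. In the cytoplasm the medians were 0.32 over 963 composite and -0.22 over 79 separate members. With SRSF3 knockdown in whole cells 35 composite members rose and 23 fell, and 4 separate members rose and 3 fell (all pairs of either kind 3.08% and 2.86%). Shares over all composite or all separate pairs were not computed. Whether composite and separate members differ was not tested.

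Several host genes act in 3′ end formation themselves. Of 6 genes known for alternative last exons that held members (15 members), 4 had a counted MISO change in some comparison, and 2 of the 7 pairs tested, both of *Cstf3*, passed a test in 1 or more of the contrasts. Over all members with enough reads, 243 of 2580 (9.42%) had a counted change in some comparison and 153 of 1221 pairs (12.5%) passed some test, and over all events of the tables the shares were 4.39% and 12.8%. *Cstf3*, the 77-kDa subunit of the cleavage stimulation factor, is known for an early poly(A) site in an intron. Its MISO proximal share was 49% with SRSF1 knockdown and 25% in GFP in whole cells, and 39% and 12% in the cytoplasm. In bins, *Cstf3* had 252 proximal and 379 distal reads in whole-cell SRSF1 knockdown A and 191 and 284 in B, shares of 39.9 and 40.2%, and the pair rose with SRSF1 knockdown (1.44 ± 0.37 SE, adjusted p = 0.0734) and fell with SRSF3 knockdown (-1.34 ± 0.37 SE, adjusted p = 0.0896), where the shares were 9.33 and 13.6%. A second pair that shares its distal exon also rose with SRSF1 knockdown (1.68 ± 0.43 SE, adjusted p = 0.0734), but did not pass with SRSF3 knockdown (-0.91 ± 0.43 SE, adjusted p = 0.292). In the cytoplasm the shares of *Cstf3* were 29.6 and 27.2% with SRSF1 knockdown and 4.70 and 7.09% in GFP, with an adjusted p of 0.104 and of 0.0648 with the block. Both libraries of SRSF1 knockdown thus stood above GFP in each fraction, though the cytoplasmic difference passed the threshold only with the block. With SRSF3 knockdown the cytoplasmic shares were 8.11 and 10.1%, above GFP and with no call (0.68 ± 0.56 SE, adjusted p = 0.791), whereas the fall in whole cells was against the other knockdowns.

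*Pcf11*, a cleavage and polyadenylation factor, had a MISO share of 74% with SRSF1 knockdown and 44% in GFP in whole cells, and of 96% and 76% in the cytoplasm. *Wdr33*, the subunit that reads the AAUAAA signal, had 36% with SRSF2 knockdown and 56% in GFP in the cytoplasm. *Calca*, whose last exons give calcitonin or CGRP, had 28% with SRSF1 knockdown and 80% in GFP in the cytoplasm, on 178 proximal and 471 distal reads against 463 and 112. These 3 have pooled values alone and no test.

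Of 42 RNA-processing host genes (73 members), 5 had a counted change (7 of 70 members with enough reads) and 7 of 22 pairs passed a test. The 7 include both pairs of *Cstf3* and *Rbm41*, whose call with SRSF1 knockdown (1.45 ± 0.34 SE, adjusted p = 0.0580) rests on 1 proximal read in each of its libraries, with 0 to 3 in the other whole-cell libraries. Among them, *Rbm26* had 59 and 52.6% with SRSF1 knockdown in whole cells, above the 17.3 to 44.8% of the other knockdowns (1.26 ± 0.32 SE, adjusted p = 0.0724), while no cytoplasmic library held more than 3 proximal reads of it. *Ddx27*, an RNA helicase, had 44.1 and 48.5% with SRSF3 knockdown in whole cells (1.15 ± 0.27 SE, adjusted p = 0.0499), and in the cytoplasm 32.7 and 34.3% with SRSF3 knockdown against 14.6 and 13.5% with SRSF7 knockdown (1.62 ± 0.38 SE, adjusted p = 0.0985). SRSF1 knockdown was also high for *Ddx27* in the cytoplasm, at 33 and 26.4%, with no call against GFP (1.47 ± 0.38 SE, adjusted p = 0.165, and 0.0750 with the block). *Luc7l*, related to a U1 snRNP protein of yeast, fell to 21.9 and 26% with SRSF3 knockdown in whole cells, where the GFP libraries, at 26.3 and 35.4%, were just above (-0.72 ± 0.19 SE, adjusted p = 0.0787). Of 51 hosts in transcription and chromatin (99 members), 7 had a counted change (12 of 97 members with enough reads) and 5 of 40 pairs passed (12.5%), including 2 pairs of *Chd7* and *Tcfl5*, a transcription factor that rose with SRSF2 knockdown to 23.6 and 26.9%, against 11.1 to 19.7% in the other knockdowns (1.03 ± 0.21 SE, adjusted p = 0.0663). Of 39 ubiquitin hosts (75 members), 4 had a counted change (6 of 63 members with enough reads, 9.52%) and 1 of 22 pairs passed (4.55%). This was *Fbxw2*, a substrate receptor of an SCF ligase, with 16.1 and 28.7% in SRSF3 knockdown and 55.9 and 47.6% in SRSF7 knockdown (-1.93 ± 0.52 SE, adjusted p = 0.0991). The lists overlap, since *Cstf3*, *Pcf11* and *Wdr33* stand in 2 of them.

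For SRSF2, SRSF6 and SRSF7, whose knockdown gave fewer than 3 calls against GFP in the cytoplasm, members are named by MISO changes counted in both fractions. *Wdr70*, a WD repeat protein, had a proximal share of 25% with SRSF2 knockdown and 62% in GFP in whole cells, and 25% and 65% in the cytoplasm, and it was also lower with SRSF1 knockdown, at 39 and 34% in the 2 fractions. The first of 2 *Cklf* events had 9% with SRSF2 knockdown and 41% in GFP in whole cells, and 43% and 93% in the cytoplasm. In whole cells the same event stood at 72% with SRSF1 knockdown and 75% with SRSF3 knockdown, on the other side of GFP. *Map6*, a protein that stabilizes microtubules, had 44% with SRSF6 knockdown and 65% in GFP in whole cells, and 39% and 64% in the cytoplasm, and the other knockdowns lay at 61 to 67% in whole cells and at 58 to 69% in the cytoplasm. With SRSF7 knockdown, *Sgsm1* had 65% against 32% in GFP in whole cells and 50% against 26% in the cytoplasm, on 33 and 34 reads in whole cells. *Aifm2*, an oxidoreductase that protects from ferroptosis, had 16% against 58% in whole cells, on 51 reads with SRSF7 knockdown and 31 in GFP, but it was also at 23 to 28% with SRSF2, SRSF3, SRSF4 and SRSF6 knockdown. *Eif2d*, a translation factor, had 3% against 26% in whole cells, on 98 reads with SRSF7 knockdown and 20 in GFP. The last 2 rest on few GFP reads, and every knockdown is set against those same reads.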

How the data were processed

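Per the labels and methods, the authors mapped reads with TopHat2 (2.0.9 and 2.0.10) and Bowtie2 2.1.0 after base calling with CASAVA 1.8.2. Use of strand in counting is not stated in the labels or the methods. The MISO files deposited by the authors give, for pooled replicates on mm9, the share of the first alternative as a fraction with its interval and read classes. Shares were turned to the proximal side. The exon bin tables deposited by the authors hold a signal on mm10, reads divided by 1 factor per library, and 100% of values returned whole reads within 0.01. The gene tables deposited by the authors hold a signal, estimated reads scaled to a common depth, and were used for markers and targets alone. Columns of the authors' own comparisons (differences, Bayes factors, fold changes, p-values) were not used. Event coordinates damaged by a spreadsheet were restored from annotated last exons. Events and bins were joined by transcript and last exon length, with no coordinate converted.

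Log2 of proximal over distal reads, each plus 0.5, was fitted per fraction in limma 3.58.1 (moderated, with a trend) for pairs with a mean of at least 10 reads per library, with Benjamini-Hochberg adjustment over all pairs. The main fit had no block. The letters A and B pair libraries: their deviations correlated above 0.1 in 28 of 28 pairs of groups in the cytoplasm (r = 0.174 to 0.689) and in 21 of 21 in whole cells (0.219 to 0.606). Scripts ran under R 4.3.3 and Python 3.11.15 and were tested on simulated data. An edgeR 4.0.16 test of the recovered reads was an added alternative. Named members were, per cytoplasmic knockdown and for SRSF3 against SRSF7, up to 6 per direction with the largest change past the threshold; with fewer than 3, up to 3 with a counted MISO change in both fractions; and listed host genes with such a change. Other host genes, and those of the whole-cell knockdowns, were chosen after their values were seen. The members and lists were chosen with earlier results of these data known.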

Additional observations from a re-analysis of the deposited data

How the results depend on the processing

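Every count below is of members. Apart from the block, shares over all pairs or events were not counted under these settings, so no excess among members can be read from them. None of the 32 values named in the cytoplasm and for SRSF3 against SRSF7 changed direction under any setting run. At an adjusted p under 0.05, calls in the cytoplasm were 0 (SRSF1), 4 (SRSF3) and 4 (SRSF3 against SRSF7), and in whole cells 23 (SRSF1), 4 (SRSF2), 30 (SRSF3), 0 (SRSF7) and 15 (SRSF3 against SRSF7). With the replicate block they were 34, 24 and 42 in the cytoplasm, and 98, 48, 110, 6 and 87 in whole cells in the same order. The block ended none of the calls of the 32 values named in the cytoplasm and for SRSF3 against SRSF7, but it ended that of *Zbtb40* with SRSF5 knockdown in whole cells (adjusted p = 0.106). A pseudocount of 5 reads gave 27 (SRSF1), 1 (SRSF2), 27 (SRSF3), 2 (SRSF7) and 47 (SRSF3 against SRSF7) in the cytoplasm, and 125 (SRSF1), 70 (SRSF2), 179 (SRSF3), 0 (SRSF5), 17 (SRSF7) and 135 (SRSF3 against SRSF7) in whole cells. Precision weights gave 43, 4, 32, 4 and 41 in the cytoplasm, and 125 (SRSF1), 79 (SRSF2), 149 (SRSF3), 4 (SRSF6), 36 (SRSF7) and 115 (SRSF3 against SRSF7) in whole cells. The edgeR test, added after seeing the data, gave 30 (SRSF1), 2 (SRSF2), 24 (SRSF3) and 28 (SRSF3 against SRSF7) in the cytoplasm, and 111 (SRSF1), 66 (SRSF2), 145 (SRSF3), 0 (SRSF5), 36 (SRSF7, 26 higher and 10 lower) and 102 (SRSF3 against SRSF7) in whole cells. With the libraries of the comparison alone, calls were 0 (SRSF1), 0 (SRSF3) and 0 (SRSF3 against SRSF7) in the cytoplasm and 1 (SRSF3 against SRSF7) in whole cells, where fewer libraries estimate the spread. A minimum of 50 reads gave 15 for SRSF1 in the cytoplasm, and no minimum beyond 1 read gave 9 for SRSF3 against SRSF7 there. The cause of these moves was not tested, other than the fewer libraries named.

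Leaving out 1 library at a time gave, in the cytoplasm, 0 to 1 calls (SRSF1), 0 to 2 (SRSF2, SRSF3 and SRSF4), 0 to 0 (SRSF5, SRSF6 and SRSF7) and 4 to 9 (SRSF3 against SRSF7), and in whole cells 0 to 53 (SRSF1), 0 to 19 (SRSF2), 10 to 51 (SRSF3), 0 to 3 (SRSF4), 0 to 6 (SRSF5), 0 to 1 (SRSF6), 0 to 0 (SRSF7) and 3 to 39 (SRSF3 against SRSF7). Of 32 named values, 29 lost their call without some library.

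For the MISO share, changes of at least 10 points with intervals apart were counted in 168, 104, 157, 31, 16, 31 and 78 members for SRSF1 to SRSF7 in whole cells and in 189, 129, 200, 54, 51, 59 and 71 in the cytoplasm. Changes of at least 20 points whatever the intervals were counted in 77, 42, 65, 16, 14, 31 and 36 in whole cells, and in the cytoplasm in 101 (SRSF1), 67 (SRSF2), 56 (SRSF4), 44 (SRSF5), 43 (SRSF6) and 53 (SRSF7). A minimum of 50 reads left 1 (SRSF5) and 3 (SRSF6) in whole cells and 11 (SRSF4), 8 (SRSF5) and 12 (SRSF7) in the cytoplasm. None of these MISO counts has a share over all events beside it, and members have more room for such changes.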
